A study of Mus musculus with 4 samples.

Results

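The baseline transcriptome of CAT control Neuro-2A cells was described from the 2 control libraries of a study with 4 libraries in all. Neuro-2A is a mouse neuroblastoma line, and its strain is given as Swiss Albino. The cells carried the plasmid pRK5-CAT, which encodes the bacterial enzyme chloramphenicol acetyltransferase and served as the negative control for a Zac1 plasmid. They were transfected with Lipofectamine, and RNA was taken 16 h later. The libraries, CAT replicate 9 and CAT replicate 12, came from separate transfections. Members were all 12861 genes with a gene ID in the deposited table, which are also all such genes of the series, and no comparison with Zac1 cells was made. The labels give no untransfected cells and no share of cells that took up the plasmid, so every level below is that of a transfected culture. Of 15 markers of sympathetic neuroblastoma, 14 were measured and 14 were on, as defined below, where 85.3% of all genes were on. Th, Ddc and Dbh, among these markers, were on but below the median gene.

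Neuroblastoma arises from the sympathetic branch of the neural crest. Cells of this lineage are held in a noradrenergic state by a circuit of transcription factors that includes PHOX2A, HAND2, GATA2, GATA3 and ISL1, and mature sympathetic neurons use tyrosine hydroxylase and dopamine beta-hydroxylase to make noradrenaline. Neuroblastomas can also hold cells of a mesenchymal state, which express vimentin, fibronectin and AP-1 genes. Imprinted genes are expressed mainly from 1 parental copy, and many are abundant in embryonic and neuroendocrine tissue.

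Transcripts were counted by digital gene expression. In this assay cDNA on oligo(dT) beads is digested with DpnII, which cuts at GATC, and a short tag next to the cut nearest the poly(A) tail is sequenced. A transcript gives 1 tag whatever its length, so levels can be set side by side between genes without a length correction, as far as the tag is present and belongs to 1 gene. The tags below are those expected from the GENCODE M21 transcripts of assembly GRCm38, not tags read in these libraries. Capitals mark the DpnII site, and the 16 bases after it are a length chosen here. The lineage regulators are shown because the identity of the line rests on them.
Phox2a (gene ID 11859): GATCaaattacacctgtccc
Hand2 (gene ID 15111): GATCatccggtttatttatg
Gata2 (gene ID 14461): GATCccaggcttctgttctg

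The catecholamine enzymes are shown because their levels span the scale from middling to 0. Th and Pnmt each have 1 DpnII site in the transcript used, and Dbh has 7. For each of them the expected tag comes from the site nearest the transcript end alone.
Th (gene ID 21823): GATCaaacctaccagccggt
Dbh (gene ID 13166): GATCacctccacgctggaag
Pnmt (gene ID 18948): GATCttactagcttccagcg

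The surface receptors Ret and Ngfr and 5 imprinted genes follow. Mest was the highest of the paternally expressed genes, Nnat and Dlk1 had wide differences between the libraries, and Igf2 and Plagl1 had 0 counts. The tag of Igf2 also occurs in 1 other gene, Gm49394, and the others are not shared with another annotated gene.
Ret (gene ID 19713): GATCtatttaagaaaggcca
Ngfr (gene ID 18053): GATCcagacctcttcatgtt
Mest (gene ID 17294): GATCatcttgtcactccttt
Nnat (gene ID 18111): GATCttgcttatccctggtc
Dlk1 (gene ID 13386): GATCtctggctgcccataca
Igf2 (gene ID 16002): GATCccctcttgggtccctc
Plagl1 (gene ID 22634): GATCaatttaagtcattgtt

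Most listed genes were on. The tag counts recovered from the deposited values summed to 11578920 in replicate 9 and 13840674 in replicate 12. All levels below are the deposited normalised counts, with replicate 9 before replicate 12, and a normalised count of 10 stands for 0.778 CPM, a usual scale of counts per library total, in replicate 9 and 0.770 in replicate 12. A gene was called on at a normalised count of at least 10 in both libraries, near zero at under 10 in both, and split otherwise. By this rule 10968 of 12861 genes were on (85.3%), 514 were split (4.0%) and 1379 were near zero (10.7%), and 87 of the near-zero genes had 0 counts in both libraries (0.676%). The median gene had a mean of 235.9. The table holds genes with at least 10 counts over the 4 libraries of the series, so the count of near-zero genes covers genes that passed this limit and not all genes off in these cells.

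The signal was concentrated in few genes. The 155 genes with a mean of at least 10000 made up 1.21% of the genes and held 35.6% of the summed signal, and the 2321 genes between 1000 and 10000 held 45.0%. The 5842 genes between 100 and 1000 held 18.3%, the 2924 between 10 and 100 held 0.991%, and the 1619 under 10 held 0.0570%. In all, 438 genes held 50% of the signal. The 20 most abundant genes took 12.1% in replicate 9 and 12.6% in replicate 12, a mean of 12.3% ± 0.366 (SD, n = 2).

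Genes of protein synthesis led the ranking. The most abundant were Rps29 (154143 and 141051), a small-subunit ribosomal protein gene, and Rpl41 (130588 and 159863), a large-subunit one. Rps2, Rps23, Rps27a, Rpl8, Rps24, Rpl23a, Rplp1, Rps3a, Rpl6, Rps12 and Rps7 were also among the first 20. The 74 cytosolic ribosomal protein genes together took 18.8% of the signal in replicate 9 and 19.3% in replicate 12, and 73 were on. The 6 other genes of the first 20 were of several kinds. Actg1, cytoplasmic gamma-actin, stood at 86091 and 98352, and Tuba1b, an alpha-tubulin, at 90357 and 80611. The chaperones Hspa8 (66073 and 80978) and Hsp90ab1 (66557 and 60190.0) belong to the HSP70 and HSP90 families. Gnas, the imprinted locus of the stimulatory G protein alpha subunit, stood at 61630.2 and 64032.

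The ninth gene, Bckdhb, encodes a mitochondrial subunit of the branched-chain keto acid dehydrogenase, and it stood at 65581 and 83157. It was the one metabolic enzyme in the first 20. Its expected tag lies 72 bases from the transcript end and occurs in no other annotated gene.
Bckdhb (gene ID 12040): GATCttaagactgtttcatg

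Energy metabolism and protein folding came next. The 70 oxidative phosphorylation genes took 3.42% and 3.14% of the signal with 69 on, led by Atp5g3 (44444 and 40343), a subunit of the ATP synthase membrane ring. The 21 measured chaperone genes took 2.50% and 2.52%, and all 21 were on, where 85.3% of all genes were on. Ppia, the peptidyl-prolyl isomerase cyclophilin A (52489 and 49171), followed the HSP genes in that list. The 16 measured glycolysis genes took 0.760% and 0.872%, and all were on, with Ldha, lactate dehydrogenase A, at 46486 and 48553 and Aldoa, an aldolase, at 12417 and 14501. The 71 mitochondrial ribosomal protein genes took 0.743% and 0.720% and the 38 proteasome genes 0.730% and 0.686%, with 70 and 36 on. All 18 translation factor genes were on and took 0.822% and 0.784%, led by Eif5a (26206 and 20613), the hypusinated elongation factor. The 199 solute carriers took 1.24% and 1.29% with 173 on. They were led by Slc25a4, the mitochondrial ADP/ATP carrier (50504 and 50313), and Slc7a5, a carrier of large neutral amino acids (9069 and 10147).

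**Figure D1:**
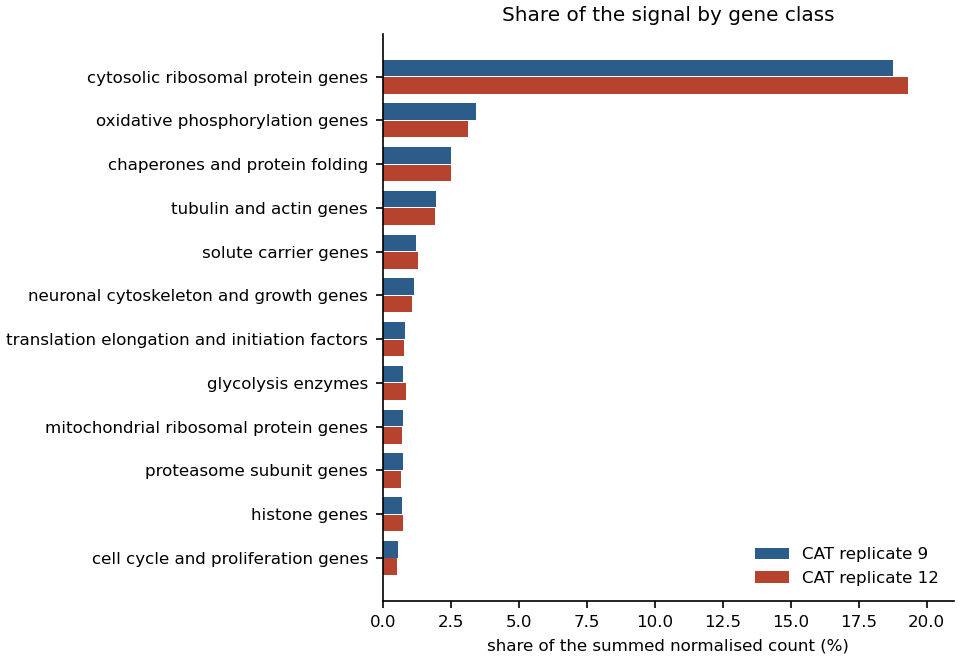
Share of the summed normalised count (%) taken by 12 gene classes in CAT replicate 9 (blue) and CAT replicate 12 (red), 1 bar per library. Cytosolic ribosomal protein genes took 18.8% and 19.3%, and no other class shown passed 3.42%.

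Some housekeeping genes stood low beside a close paralog. Actb, beta-actin, had 240.7 and 197, against 86091 and 98352 for Actg1. Tuba1c had 5.54 and 4.68, against 90357 and 80611 for Tuba1b. Eno1, the main enolase of most cells, had 26.9 and 49.9, and Eef1a1, an abundant elongation factor, had 652 and 409. These 4 genes were singled out after their values were seen. The expected tags of all 4 also occur in other annotated genes, which were Gm14747 for Actb, Eno1b for Eno1, 6 genes for Eef1a1 and 11 genes for Tuba1c, while those of Actg1 and Tuba1b were found in no other.
Actg1 (gene ID 11465): GATCtgtgcagggtattaac
Actb (gene ID 11461): GATCagcaagcaggagtacg
Tuba1b (gene ID 22143): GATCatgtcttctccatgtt
Tuba1c (gene ID 22146): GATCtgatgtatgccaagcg

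How the authors counted a tag found in several genes is not given in the sources used here, and the part of shared tags in these low levels was not tested. Over the table, 717 of 12413 genes with an expected tag shared it (5.78%). The share was 35.9% (55 of 153) among genes with a mean of at least 10000 and between 4.33% and 7.67% in the lower bands. Levels of ribosomal protein genes, which have many processed pseudogenes, are therefore uncertain, and so are those of Hspa8 and Ppia, whose tags occur in 6 and 12 other genes.

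Transcription factors were mostly on, with a median below that of all genes. Of 261 factors in 26 families and lists, 214 were on (82.0%, against 85.3% of all genes), with a median of 190.0 against 235.9. This set includes the noradrenergic list itself, the nuclear receptors and the MYC network. It leaves out the Zfp genes and factors outside the chosen families and lists. Ranks among factors hold within this set only. A mean over 1000 was reached by 37 of them. The highest was Atf4, a bZIP factor of the amino acid and stress response, at 17232 and 21966, which placed it 81st of all genes. Gata2, a zinc-finger factor of sympathetic and blood development, came next at 4548 and 4472. The third was Hand2, a bHLH factor of sympathetic neurons and heart, at 3907 and 3738. Its rank among all genes was 535, close to 442 for Gata2. Atf5 (3158 and 4289) and Phox2a (3592 and 3683) followed, and between these 2 the spread of the libraries was wider than the gap. By the mean of the libraries, regulators of the sympathetic lineage made up 3 of the first 5 factors of this set. In replicate 12 Atf5 was above Hand2, and Tfdp1 (3685.06) was just above Phox2a (3683.12). The count of 3 in 5 therefore did not hold in replicate 12 alone.

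Below them stood factors of the cell cycle and of growth signalling. The E2F partner Tfdp1 had 3100.4 and 3685, and E2f4 and E2f1 had 2118 and 2083, and 1966 and 2207. All 10 measured E2F genes were on, where 85.3% of all genes were on. Foxk2 (3079 and 3492) led the 21 forkhead genes, of which 16 were on. Etv4, an ETS factor downstream of growth factor receptors, had 2699.9 and 3404, and led 21 ETS genes with 18 on. Tcf4, the broadly expressed partner of tissue-specific bHLH factors, had 2403 and 2614. Stat3 (1892 and 1722) led 6 STAT genes and Smad2 (1085 and 1269) led 8 SMAD genes, and all members of both families were on. Nkx2-5, a homeobox gene best known from heart development, had 1377 and 1350.3, and Nkx6-3 had 0 counts in both libraries.

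Other homeobox and patterning families were measured in part and at lower levels. The 6 measured HOX genes all belonged to the Hoxc cluster. Hoxc6 had 678 and 516, Hoxc10 435 and 429, Hoxc9 209 and 197, and Hoxc4 117 and 114, while Hoxc8 and Hoxc5 were split. Pax6, an eye and brain regulator, had 254 and 266, and the 2 other PAX genes measured were not on. Among 12 TALE homeodomain genes, HOX cofactors for the most part, 10 were on (83.3%, near the 85.3% of all genes). Pknox1 (529 and 668) and Pbx2 (554 and 612) were highest. The 9 LIM-homeodomain genes had 6 on (66.7%), and after Isl1 the next, Isl2, had 64.6 and 96.8. The POU genes were low, with Pou4f1, a sensory and autonomic neuron factor, highest at 163 and 162. Of the 305 genes named Zfp, 276 were on (90.5%), and Zfp36l2, an RNA-binding protein despite the name, led with 4166 and 4533.

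Families that act downstream of growth and differentiation signals differed in the share on, against 85.3% of all genes. Of 26 AP-1, ATF and CREB genes, 23 were on (88.5%), near that of all genes, and after Atf4 and Atf5 came Jund (1773 and 1925), Atf2 (1501 and 1578) and Junb (1336 and 1438). The inhibitors of bHLH factors Id3 (1784 and 1184), Id2 (1255 and 1025) and Id1 (1057 and 903) led 12 HES, HEY and ID genes, of which 9 were on (75%). Among the HES genes proper, Hes6 was highest at 177 and 228. Of 18 KLF and SP genes, 16 were on (88.9%), led by Klf10 (1223 and 1152) and the widely used promoter factor Sp1 (901 and 1142). The T-box family had 5 of 10 on (50%), and Tbx10 had 0 counts in both libraries. This share depended on the threshold, since 8 of the 10 were on at a threshold of 5. Of 13 neurogenic and class II bHLH genes, 8 were on (61.5%), among them the broad partners Tcf4, Tcf3 (1094 and 1155) and Tcf12 (1001 and 1019), and the proneural factor Neurog2 had 4 and 0 counts. Tal1, a bHLH factor of blood and of some neurons, had 404 and 553.

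The noradrenergic regulators were on about as often as all genes, with a higher median level. Of 23 in the list, 21 were measured and 18 were on (85.7%, against 85.3% of all genes), with a median of 865 against 235.9 for all genes. After Gata2, Hand2 and Phox2a came Satb1 (2057 and 1854), a chromatin organiser, and Tbx2 (1954 and 1839), a T-box repressor. Sox11 (1383 and 1299), Isl1 (1257 and 1083), Sox4 (973 and 1096) and Insm1 (758 and 1213), a zinc-finger factor of neuroendocrine cells, stood near 1000. Gata3 had 850.0 and 880.2, lower than Gata2 in both libraries. Gata4, a heart and endoderm GATA factor, had 759 and 581.

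Tbx20 (809 and 692), Zfhx3 (686 and 624), Zeb2 (549 and 501), Six3 (528 and 493) and Meis1 (472 and 572) held the middle of the list. Meis2 (148 and 208) and Tfap2b (86.6 and 92.0), a neural crest AP-2 factor, were the lowest that were on. Tbx3 (7.99 and 21.7) and Hand1 (18.6 and 3.62) were split, with the libraries in opposite order, and Klf7 was near zero (7.75 and 6.55). Hand2 was over 100 times Hand1 in both libraries. Eya1 was not analysed here.

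**Figure D2:**
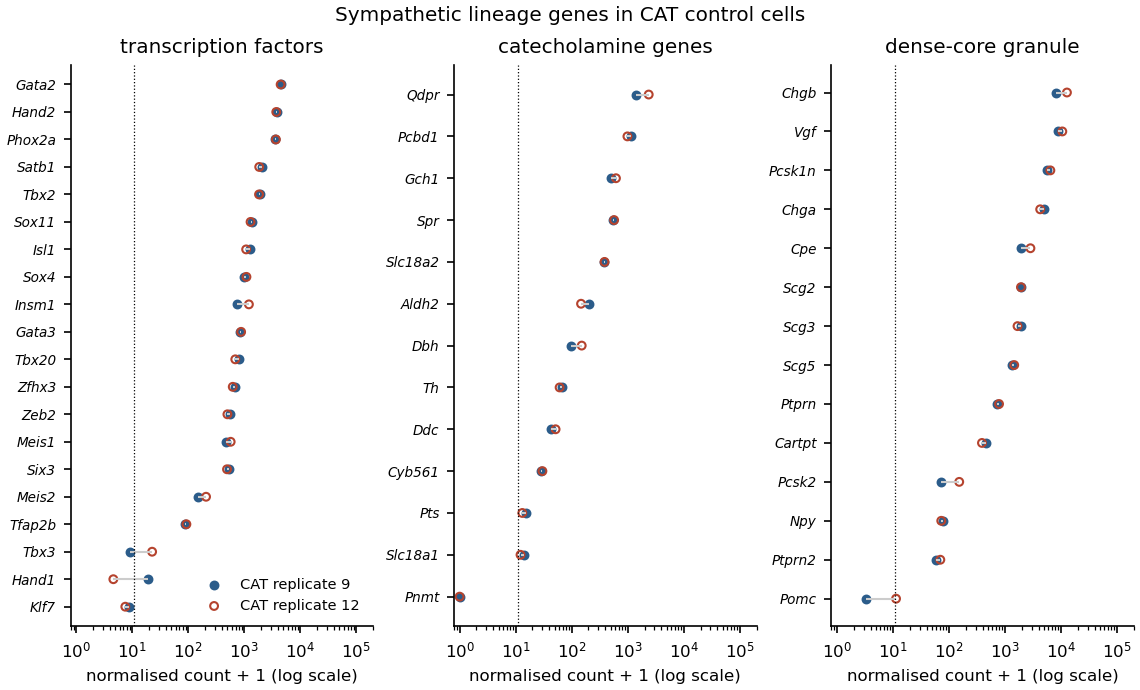
Normalised count + 1 (log scale) of measured noradrenergic transcription factors, catecholamine genes and dense-core granule genes in CAT replicate 9 (filled blue) and CAT replicate 12 (open red), joined by a line. The dotted line marks a normalised count of 10. Gata2, Hand2 and Phox2a stand highest among the factors, Th (65.4 and 60.03) is far below the granule gene Chgb (8097 and 12832), and Pnmt is at 0 in both libraries.

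Catecholamine genes were on but low, and the enzyme of adrenaline synthesis was at 0. Of 17 genes in the list, 14 were measured and 13 were on (92.9%, against 85.3% of all genes). The median of the 14 was 150.2, below that of all genes. Genes that make and recycle the cofactor tetrahydrobiopterin were the highest. Qdpr had 1389 and 2376, Pcbd1 had 1164 and 989.9, Gch1, the first enzyme of its synthesis, had 504 and 618, and Spr had 543 and 572. Pts, another enzyme of the same pathway, had 14.4 and 12.2. The enzymes that act on the amine itself were lower. Dbh, which makes noradrenaline from dopamine, had 96.8 and 150.3. Th, the rate-limiting enzyme, had 65.4 and 60.03, which ranked it 9107th of 12861 genes. Ddc, the decarboxylase that makes dopamine, had 41.2 and 50.7. In bulk RNA, few cells with much transcript and many cells with little cannot be told apart.

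Pnmt, which methylates noradrenaline, had 0 counts in both libraries, which allows up to 0.259 CPM in replicate 9 and 0.217 in replicate 12. Of the vesicular monoamine transporters, Slc18a2 (373 and 386) was far above Slc18a1 (13.3 and 11.2). The aldehyde dehydrogenase Aldh2 had 207 and 146, and Cyb561, the electron carrier of the granule membrane, had 27.8 and 29.1.

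Dense-core granule genes were among the more abundant neuroendocrine transcripts. Of 25 listed, 14 were measured, 13 were on (92.9%, against 85.3% of all genes) and Pomc was split, with a median of 1596. Chromogranin B, Chgb, had 8097 and 12832, and Vgf, a neurotrophin-induced granule protein, had 9059 and 10610.2. Pcsk1n, an inhibitor of prohormone convertase 1, had 5682 and 6493, and Chga, chromogranin A, had 4900.0 and 4272. The order of these 2 genes changed with the library, since Vgf was above Chgb in replicate 9 and below it in replicate 12. Cpe, the carboxypeptidase that trims peptide hormones, had 1904 and 2861, and the secretogranins Scg2 (1919 and 1939), Scg3 (1916 and 1682) and Scg5 (1318 and 1469) were close to it. Their peptide cargo was lower. Cartpt had 467 and 389, and Npy, the co-transmitter of sympathetic neurons, had 78.7 and 72.2. The convertase Pcsk2 (72.5 and 152) was the 1 member past 2-fold between the libraries.

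Neuronal structure genes stood high as a class. Of 40 neuronal cytoskeleton and growth genes, 36 were measured and 35 were on (97.2%, against 85.3% of all genes). The 36 had a median of 1203 and took 1.16% and 1.07% of the signal. Tuba1a, the alpha-tubulin of young neurons, had 32513 and 29998. Prph, peripherin, the intermediate filament of peripheral neurons, had 17507 and 14921. Mtap1b, the microtubule protein of growing axons, had 11542 and 12264. The stathmins Stmn2 (11154 and 11250.1), Stmn1 (10424 and 9029) and Stmn3 (9189 and 8186) followed. Rbfox3, the NeuN antigen of mature neurons, had 0 and 2 counts and was the 1 member near zero.

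Release machinery was on at intermediate levels, and few transmitter enzymes were measured. Of 36 synaptic vesicle and release genes, 30 were measured and 25 were on (83.3%, near the 85.3% of all genes), with a median of 547. Syt11, a synaptotagmin, had 2521 and 2474. Cplx2 (2304 and 1703), Syt4 (1717 and 1725), Unc13a (1305 and 1566) and Syn1 (1326 and 1525) were next. Of 7 cholinergic genes, 2 were measured, Ache, acetylcholinesterase (167 and 288), and its membrane anchor Prima1 (119 and 114). Of 15 genes of other transmitters, 5 were measured and all were on. Slc6a9, a glycine transporter, had 198 and 347, and the serotonin enzymes Tph2 and Tph1 had 136 and 125, and 39.9 and 39.4. Hdc, the histamine enzyme, had 20.1 and 31.0.

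Genes of the neural crest and its glia were mixed, with 1 abundant member. Of 25 listed, 12 were measured and 6 were on (50%, against 85.3% of all genes). Ngfr, the p75 neurotrophin receptor, had 9904 and 7107. The next, Zic1 (266 and 202) and Sox8 (171 and 171), were far below it, and Ets1 (60.9 and 50.6), Mitf (22.3 and 28.2) and Sox6 (18.98 and 26.3) completed those that were on. The glial marker S100b had 0 counts in both libraries. Sox9 had 2.30 and 5.67.

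The mesenchymal state list held abundant members and several that differed between the libraries. Of 39 genes, 28 were measured and 19 were on (67.9%, against 85.3% of all genes). Their median was 91.3, below the 235.9 of all genes. Vim, vimentin, had 52385 and 43491 and made up most of the summed level of the list, which was 74062 and 62411. S100a6, a calcium-binding protein, had 10408 and 7304, and Fn1, fibronectin, had 3078 and 3541. Between the libraries, 6 of the 23 members with a mean of at least 10 were past 2-fold (26.1%), against 3.61% of the 11242 such genes. They were Tgfbi (87.1 and 224), Tead2 (27.2 and 128), Cd44 (1.42 and 28.4) and Col1a1 (6.84 and 17.0), higher in replicate 12, and Runx2 (27.3 and 5.45) and Six4 (18.7 and 8.34), higher in replicate 9. Tgfbi had a mean of 155.4, in the band from 100 to 1000, where 0.599% of all genes were past 2-fold. The others had a mean between 10 and 100, where 12.5% of all genes were past 2-fold.

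Markers of other cell types were measured in part, and most were low. Of 16 macrophage and lymphocyte markers, 4 were measured and 0 were on, where 85.3% of all genes were on. Their summed level was 23.2 and 15.9, and Csf1r, the macrophage growth factor receptor, had 0 and 1 counts. The 5 measured of 12 epithelium and liver markers summed to 58.6 and 53.4, and Krt8 (37.8 and 43.2) was the 1 that was on. The 7 measured of 12 fibroblast markers summed to 176 and 187, with 3 on, among them Acta2, smooth muscle actin (105 and 91.0). Acta2 was the highest member of these 3 lists.

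The other 3 lists were carried by single genes. The 8 measured of 14 glial markers summed to 2594 and 2319, of which Pmp22, a myelin protein that many cell types make, held 2234 and 2057. Mbp had 327 and 232, and S100b and Mag were at 0 counts in both libraries. The 6 measured of 10 endothelial markers summed to 1156 and 1158, of which Egfl7 held 1101 and 1065, while Cdh5, the cadherin of endothelium, had 0 and 3 counts. The 8 measured of 12 muscle markers summed to 1408 and 1893, of which Myh3, embryonic myosin heavy chain, held 1195 and 1737, and Myog, the myogenic regulator, had 1 and 1 counts.

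Genes tied to neuroblastoma in patients and models were on where they were measured. All 34 measured of 38 neuroblastoma-associated genes were on (100%, against 85.3% of all genes), with a median of 787. Cadm1, an adhesion molecule on the human chromosome arm often lost in neuroblastoma, had 5785 and 6772, and Ccnd1, cyclin D1, had 5151 and 4410.3. Kif1b (3706 and 3659.6), a motor protein gene, Ddx1, the neighbour of human MYCN (3766 and 3587), Odc1, a MYC target of polyamine synthesis (2766 and 2647), and Lmo1, a cofactor of the noradrenergic circuit (2488 and 2887), followed. Myc was above Mycn in both libraries, at 1774 and 2145 against 991 and 1244. Of 12 MYC network genes, 11 were measured and 10 were on (90.9%). The obligate partner Max had 1026 and 1050.0, and Mycl1 had 1 and 0 counts. Lin28a, an RNA-binding repressor of let-7, had 801 and 648, above Lin28b at 259 and 289. Lin28a also led the pluripotency list, of which 4 of 13 were measured and 3 were on, followed by Klf4 (159.5 and 102).

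Proliferation genes were on without exception among those measured. The 24 histone genes, most of whose replication-dependent transcripts lack a poly(A) tail and so escape an oligo(dT) assay, took 0.711% and 0.753% of the signal, and the variant genes H3f3b (40076 and 42072) and H2afz (21645 and 25282) led them. Of 36 cell cycle genes, 33 were measured, 33 were on (100%, against 85.3% of all genes) and 0 were past 2-fold between the libraries. Cdk1, the mitotic kinase, had 15496 and 12767, and Pcna, the sliding clamp of replication, had 5734 and 7469. Ccnb1, cyclin B1, had 6053 and 3801, and the helicase subunits Mcm7 (4558 and 4870.2) and Mcm3 (2654 and 3526) were next after Ccnd1. Checkpoint genes were on beside them. Of 20 genes of the p53, CDK inhibitor and RB group, 16 were measured and 15 were on (93.8%). Bax (1430.4 and 1589), Trp53 (1306 and 1260.2) and its regulator Mdm2 (1303 and 1134) were highest. Cdkn2d had 1155 and 967, Cdkn1a had 832 and 895, and Cdkn1b had 806 and 605. Cdkn2a, the Ink4a and Arf locus, which is silenced in many tumour lines, had 499.6 and 745. The imprinted inhibitor Cdkn1c had 1 and 1 counts.

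Among receptor tyrosine kinases, Ret stood apart from the others. Of 58 listed, 33 were measured, 22 were on, 2 were split and 9 were near zero (66.7% on, against 85.3% of all genes). Ret, the receptor of the GDNF ligands, had 6383 and 6814, which placed it 272nd of all genes. The next, Ryk, an atypical Wnt receptor, had 1256 and 1236. Ddr2, a collagen receptor (785 and 1017), Igf1r (614 and 839) and Lmtk2 (636 and 687) came after it, and from Ddr2 to Lmtk2 the values of neighbours overlapped. Alk, the receptor most often mutated in human neuroblastoma, had 173 and 229. Ntrk3 had 197 and 189.

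Several receptors of wide use were near zero. Epha2 had 0 counts in both libraries, Erbb2 had 2 and 1 counts, Egfr had 5 and 9, and Pdgfra had 4 and 9, the last 3 named after their values were seen. The coreceptors that bind GDNF ligands for Ret were also low among those measured. Of 12 neurotrophin and GDNF coreceptors, 7 were measured and 5 were on (71.4%, against 85.3% of all genes). Ngfr led with 9904 and 7107, followed by Ncam1 (2146 and 1810.0), Cntfr, the CNTF receptor alpha chain (1271 and 1332), and Sort1 (600.2 and 494). Gfra2, the neurturin coreceptor, was split at 7.84 and 11.3, and Gfra1, the GDNF coreceptor, was near zero at 3.39 and 5.65. Ret was over 100 times each of them in both libraries.

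Nuclear receptors were on about as often as all genes. Of 49 listed, 29 were measured and 26 were on (89.7%, against 85.3%), with a median of 191. Thra, thyroid hormone receptor alpha, had 1335 and 1687, and the orphan receptor Nr2f6 had 1308 and 1317. Nr1d2, a clock repressor (1015 and 979), Nr1h2, an oxysterol receptor (740.4 and 1067), Esrra (835 and 659.6) and Nr3c1, the glucocorticoid receptor (687 and 761), followed. The library values of neighbours overlapped from Nr1d2 to Nr3c1, so the order of neighbours in that stretch was not resolved.

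Receptors for small transmitters and peptides were on less often than all genes, among those measured. Of 39 aminergic, muscarinic and adenosine receptors, 11 were measured and 6 were on (54.5%, against 85.3% of all genes). The adenosine receptor Adora2a had 535 and 906, the muscarinic Chrm4 had 229.6 and 202, and the histamine receptor Hrh1 had 194 and 193. Of 54 peptide, lipid and cannabinoid receptors, 22 were measured and 17 were on (77.3%, against the same 85.3%). F2r, the thrombin receptor, was at the level of Ret with 6401 and 5719. Cnr1, the brain cannabinoid receptor, had 2105 and 3189, and Adcyap1r1, the receptor of the peptide PACAP, had 1542 and 2325. The fourth, S1pr2, a sphingosine phosphate receptor, was far lower at 266 and 325.

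Among transmitter-gated channels, a nicotinic subunit was the highest. Of 58 listed, 24 were measured and 15 were on (62.5%, against 85.3% of all genes). Chrna3, the ligand-binding subunit of ganglionic nicotinic receptors, had 2207 and 2337. Its usual partner Chrnb4 was near zero at 6.60 and 3.71, and the alternative partner Chrnb2 had 544 and 443. Chrna1, the muscle subunit, had 1324 and 921. The kainate receptor subunit Grik5 had 968 and 1305, and the serotonin-gated Htr3a had 194 and 151. Grin2c, an NMDA receptor subunit, had 0 counts in both libraries.

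Receptors of developmental signals were modest in level. Of 31 receptors for Wnt, Notch, TGF-beta, BMP and Hedgehog ligands, 25 were measured and 15 were on (60%, against 85.3% of all genes). Their median was 29.9. The Wnt coreceptor Lrp6 (728 and 957), the BMP receptor Bmpr1a (738 and 887) and Tgfbr1 (501 and 556) were highest, followed by Fzd6 (552 and 373), Fzd3 (401 and 455) and Fzd7 (344 and 222).

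**Figure D3:**
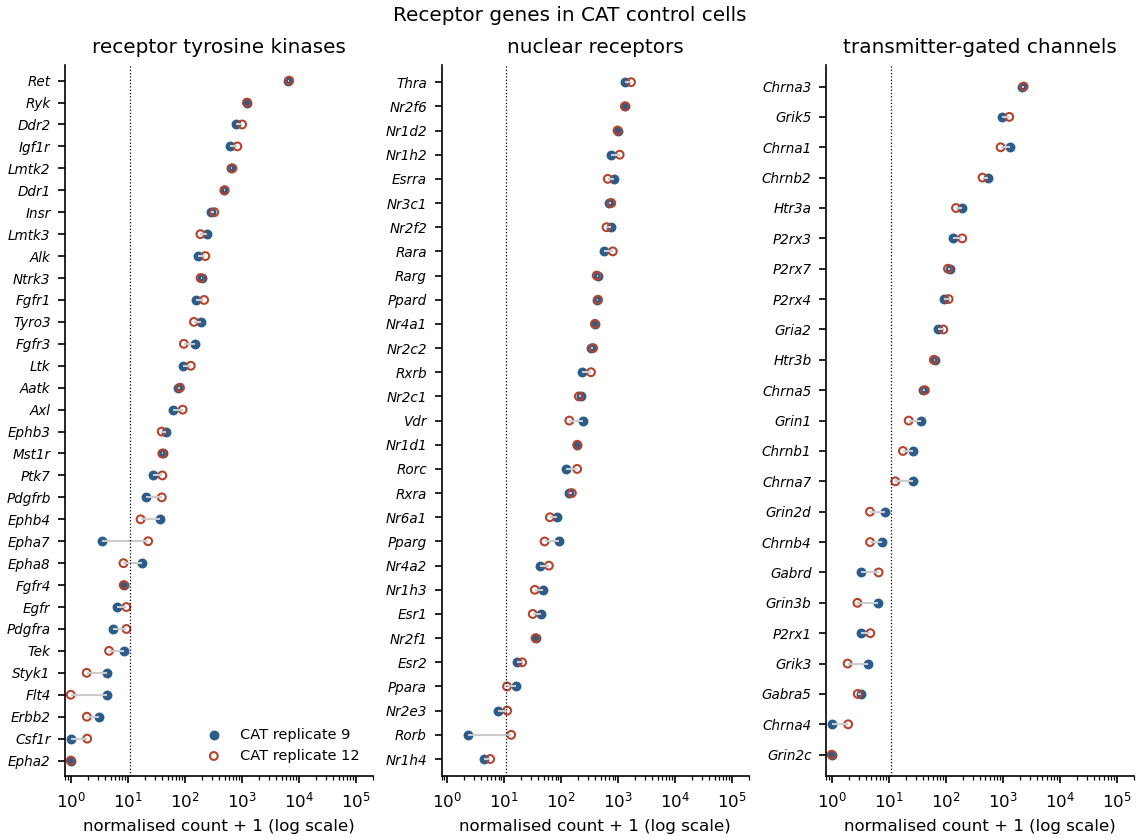
Normalised count + 1 (log scale) of measured receptor tyrosine kinase, nuclear receptor and transmitter-gated channel genes in CAT replicate 9 (filled blue) and CAT replicate 12 (open red), joined by a line. The dotted line marks a normalised count of 10. Ret (6383 and 6814) lies well to the right of the other kinases, and 26 of 29 nuclear receptors lie to the right of the dotted line in both libraries.

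Paternally expressed imprinted genes were on about as often as all genes, and 2 of them had 0 counts. Of 31 listed, 21 were measured and 18 were on (85.7%, against 85.3% of all genes), with a median of 253. Mest, an enzyme of the alpha/beta hydrolase fold expressed in embryonic mesoderm, had 16526 and 14372 and ranked 103rd of all genes. The others were far lower. Zdbf2 had 1482 and 2126, Peg10, derived from a retrotransposon, had 1141 and 1741, Impact had 1352 and 1333, and Sgce, the neighbour of Peg10, had 801 and 820.1. Mcts2 (639 and 691), Peg13 (386 and 520.0), Inpp5f (322 and 345), Sfmbt2 (255 and 251), Nap1l5 (154 and 169.9), Kcnq1ot1 (147 and 117) and Mkrn3 (99.99 and 122) agreed between the libraries within 2-fold. Usp29 (59.8 and 50.6), Peg3 (50.9 and 40.3), Nespas (16.6 and 15.0) and Airn (17.6 and 11.2) were low. Usp29 and Peg3, which share a promoter region, were close in level.

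The genes at or near 0 were Magel2, Plagl1 and Igf2. Magel2, of the Prader-Willi region, had 5 and 5 counts. Plagl1, which encodes the factor Zac1, and Igf2, the fetal growth factor, had 0 counts in both libraries. For Plagl1, whose expected tag lies 1587 bases from the transcript end, the upper limits are those of Pnmt. For Igf2, whose tag also occurs in Gm49394, these limits hold only if shared tags were counted. Plagl2, the paralog of Plagl1, had 156 and 136, and it was the 1 other measured member of the PLAG family of 3.

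Nnat and Dlk1 differed widely between the libraries. Nnat, a small membrane proteolipid of neuroendocrine cells, had 81.9 and 1419.6. Dlk1, a Notch-like membrane protein of progenitors and of the adrenal medulla, had 220.5 and 1073. They were the 2 of 18 paternally expressed genes with a mean of at least 10 that were past 2-fold (11.1%, against 3.61% of all such genes). Blcap, whose gene holds Nnat in an intron, had 1293 and 1573. Meg3, of the same imprinted domain as Dlk1, had 11.3 and 25.5, and Rian, further along it, had 23.5 and 40.5, both higher in replicate 12 as Dlk1 was. Mirg, the next transcript, had 7.75 and 6.55.

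Maternally expressed imprinted genes ranged from the top of the table to near zero. Of 33 listed, 23 were measured, 16 were on (69.6%, against 85.3% of all genes), 3 were split and 4 were near zero, with a median of 32.0. Gnas ranked 14th of all genes, although its tag does not tell the biallelic transcript from the imprinted ones. Cd81, a tetraspanin, had 2351 and 3196, Nap1l4, a histone chaperone, had 2230.4 and 2382, and Ube3a, the Angelman syndrome ubiquitin ligase, had 681 and 741. Copg2 (292 and 283), Trappc9 (288 and 259.9), Osbpl5 (199 and 130.3), Eif2c2, now named Ago2 (88.5 and 52.4), and Ppp1r9a (73.2 and 71.3) were at middling levels. The growth inhibitors of this group were low. Grb10 had 24.3 and 19.7, and Phlda2, which limits placental growth, had 10.6 and 93.4 and was past 2-fold, as Meg3 was, which made 2 of 16 (12.5%).

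Slc22a18 had 21.04 and 17.8, and Tssc4 had 15.5 and 15.0. Split genes were Tspan32 (5.67 and 11.3), Ascl2 (4.58 and 11.3) and Asb4, with 0 and 13 counts. Igf2r, the receptor that clears IGF2, had 5.62 and 8.47, Cdkn1c had 1 and 1 counts, and Kcnq1 had 1 and 0. Airn and Kcnq1ot1, the noncoding transcripts that overlap Igf2r and Kcnq1 on the opposite strand, were higher than these genes in both libraries. The sources used here do not say whether the counting used strand, so such pairs, and Nespas with Gnas, cannot be told apart with certainty.

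**Figure D4:**
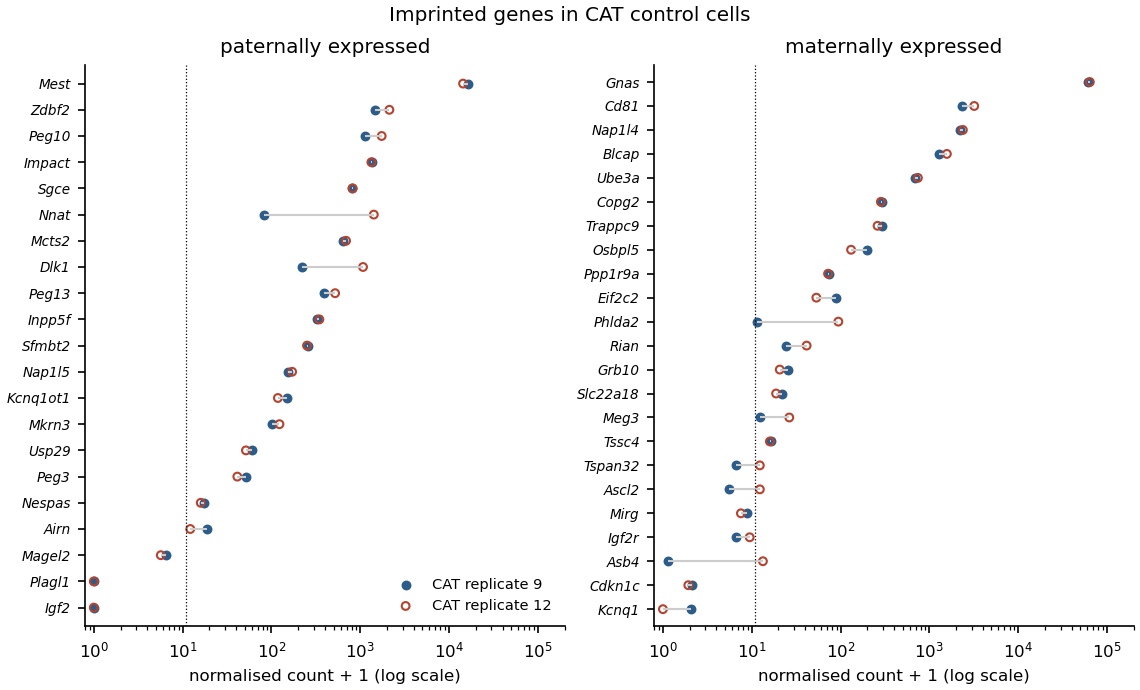
Normalised count + 1 (log scale) of the 21 paternally and 23 maternally expressed imprinted genes measured, in CAT replicate 9 (filled blue) and CAT replicate 12 (open red), joined by a line. The dotted line marks a normalised count of 10. Long lines mark Nnat (81.9 and 1419.6), Dlk1 (220.5 and 1073) and Phlda2 (10.6 and 93.4), and Plagl1 and Igf2 lie at 0 in both libraries.

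Genes that keep imprints and DNA methylation were on, the germline cofactor aside. Of 21 listed, 19 were measured and 18 were on (94.7%, against 85.3% of all genes). Trim28, the corepressor of KRAB zinc-finger proteins, had 7924 and 9697, Uhrf1, which brings DNMT1 to replicated DNA, had 4569 and 7097, and Dnmt1 had 3825 and 3631. Mbd2 (2048 and 2124), Mbd1 (1527 and 1791) and Hells (812 and 871) came next. Of the other methyltransferase genes, Dnmt3a had 667 and 742, Dnmt3b had 95.5 and 113, and Dnmt3l had 3.44 and 8.51. Zfp57, which holds methylation at imprinted regions through TRIM28, had 221 and 221. Xist, the RNA of X inactivation, had 499 and 864, and Tsix, its antisense partner, had 14.3 and 6.49. These were the 2 measured of 9 Y-linked and X-inactivation genes, and the labels give no sex.

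Response genes of the interferon and immediate early kind were measured in these transfected cultures, with no untransfected culture to set them against. Of 20 interferon and nucleic acid sensing genes, 18 were measured, 16 were on (88.9%, near the 85.3% of all genes) and 2 were split, with a median of 127, below the 235.9 of all genes. Isg15, a ubiquitin-like protein, had 2986 and 2872, and Bst2, tetherin, had 3042 and 2456. Cxcl10 (490.4 and 434), Irf7 (424 and 432) and Irf9 (383 and 312) followed. Of 20 immediate early genes, 18 were measured and 17 were on (94.4%), with a median of 322. Ier2 had 2463 and 2344, Dusp6, a phosphatase of ERK, had 1949.8 and 2456, and Fos and Jun had 428 and 496, and 429 and 391. Egr2 was the 1 member near zero, at 8.88 and 8.44.

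Of the 87 genes with 0 counts in both libraries, those on the lists were Epha2, Grin2c, Igf2, Mag, Nkx6-3, Plagl1, Pnmt, S100b, Tbx10 and the solute carriers Slc4a1, Slc5a11 and Slc7a9. Slc4a1 is the anion exchanger of red cells and Slc7a9 an amino acid transporter of kidney. Others, named after their values were seen, were Wnt1, a dorsal neural tube ligand, C3 of complement, Agt, angiotensinogen, Gnat1, the rod transducin, and Mpo of granulocytes.

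The 2 libraries agreed closely for abundant genes and less for low ones. Across the 11242 genes with a mean of at least 10, log2(normalised count + 1) gave a Pearson correlation of 0.983, and the Spearman correlation was 0.989. These are descriptions across genes, which are not independent and share their library. The median log2 ratio of replicate 12 to replicate 9 was 0.00, so the libraries were centred alike. The median coefficient of variation was 9.55%. It was 19.1% for genes between 10 and 100, 8.83% between 100 and 1000, 6.76% between 1000 and 10000 and 7.10% above that. The recovered counts differed by more than counting error, since chi-square over its degrees of freedom came to 12.9, with a coefficient of variation beyond counting of 13.6%. The common value that the authors' normalisation used over all 4 libraries came out as 19.1%.

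Past 2-fold between the libraries were 406 of 11242 genes (3.61%), of which 227 were higher in replicate 12 and 179 in replicate 9. Most were low, since 366 had a mean between 10 and 100, which was 12.5% of that band. Of the 8318 genes with a mean of at least 100, 40 were past 2-fold (0.481%), 25 higher in replicate 12 and 15 in replicate 9. Above a mean of 10000 there were 0.

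Among genes with a mean of at least 100, the widest differences were in genes higher in replicate 12. Nnat was 17.3-fold higher there, with 1419.6 in replicate 12 and 81.9 in replicate 9. Crabp1, a retinoic acid binding protein, was 10.8-fold higher (414 in replicate 12 and 38.5 in replicate 9), and Dlk1 was 4.87-fold higher. Islr (4.34-fold), a leucine-rich secreted protein, and Ankrd37 (3.81-fold), Ndrg1 (3.56-fold) and Bnip3 (2.89-fold), 3 genes that hypoxia is known to induce, were next. Lgr5, a receptor that marks stem cells in several tissues, was 2.82-fold higher, and Serpinf1 and Tgfbi, both secreted, were 2.73-fold and 2.57-fold higher. The labels do not say how the transfections differed.

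In the other direction, differences among genes with a mean of at least 100 were narrower. Lor, loricrin, was 2.89-fold higher in replicate 9, with 178 in replicate 9 and 61.6 in replicate 12. The next were Hdac9 (2.35-fold), Trip6 (2.32-fold), P4ha3 (2.32-fold), Plch1 (2.30-fold), Bves (2.23-fold), Tmem70 (2.14-fold), Prr9 (2.14-fold), Gm14005 (2.11-fold) and Rbbp9 (2.10-fold). Of the 5 genes past 2-fold with a mean of at least 1000, 3 were higher in replicate 12. They were Bnip3 (1951 in replicate 12 and 674 in replicate 9), Ddit4, a stress-induced inhibitor of mTORC1 (1714 in replicate 12 and 785 in replicate 9), and P4ha2, a collagen prolyl hydroxylase (3423 in replicate 12 and 1679 in replicate 9). Mfsd11 (10054 in replicate 9 and 4818 in replicate 12) and Tmem70 (2010.1 in replicate 9 and 938 in replicate 12) were higher in replicate 9. Among the glycolysis genes, Aldoc was the 1 past 2-fold, with 159 in replicate 12 and 30.6 in replicate 9. Of the 16 measured, 13 were higher in replicate 12 and 3 in replicate 9. Their median log2 ratio was 0.341, against 0.0045 for genes with a mean of at least 10.

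**Figure D5:**
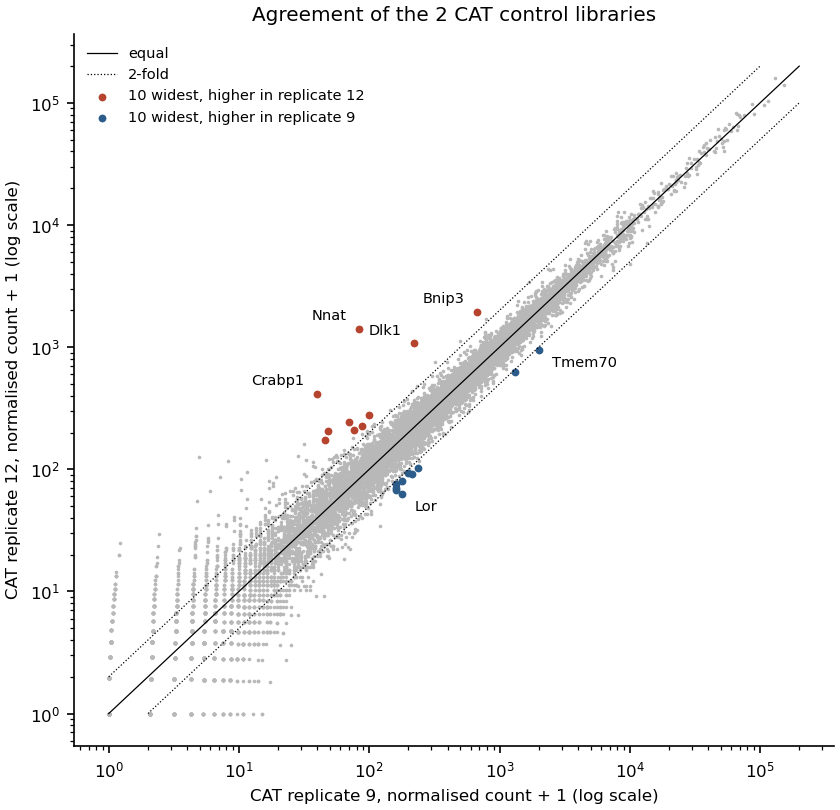
Normalised count + 1 of every gene in CAT replicate 9 (x axis) and CAT replicate 12 (y axis), both on log scales, with lines of equality and of a 2-fold difference. Coloured points are the 10 widest differences in each direction among genes with a mean of at least 100. Of the coloured points, Nnat, Crabp1 and Dlk1 lie farthest from the line, and all points spread out below a normalised count of 100.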

How the data were processed

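Digital gene expression libraries of 2 CAT control cultures were described, and nothing was tested, since a single group of 2 libraries was used. The deposited table holds a normalised signal per gene, which per the file headers is a TMM pseudocount, a count moved by the authors to a common library size. The authors worked with edgeR on build mm9, per the submitters' processing notes. For the versions, the aligner and the way tags were assigned to genes, the answer is not given in the sources used here.

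Of 12866 lines, 5 had no gene ID and were left out, and they held 0% of the counts of the CAT libraries. Whole counts were recovered by inverting the pseudocount formula with a common dispersion of 0.0364 and relative library sizes of 0.901 and 1.07 for replicates 9 and 12, and they returned 100% of the values within 0.0001. On simulated data for these 2 libraries, 100% of 25722 counts over 12861 genes were recovered. Totals were 11578920 and 13840674 counts. A count of 0 allows up to 3 counts, and such limits cover counting error only, since PCR copies (15 cycles from 2 µg of RNA) are not independent molecules. Genes were on at a normalised count of at least 10 in both libraries. Differences between libraries used log2(value + 1), a mean of at least 10 and a 2-fold rule.

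Expected DpnII tags were read from GENCODE M21 transcripts (GRCm38), to which 12426 genes were matched by gene ID. No coordinates are given, because that build is not the authors' one. Symbols are those of the table, and older ones (Mtap1b, Eif2c2, Mycl1) were kept. In all 37 gene lists and 31 families defined by symbol were used, holding 571 measured genes of the 869 on the lists. The members and lists were chosen with earlier results of these data known. Genes were named by rule: the 20 most abundant, the highest 6 and the 0-count members of each list or family, all members of the noradrenergic, catecholamine, imprinted and PLAG lists, and the 10 widest library differences in each direction, with paralogs to complete pairs. Some genes this rule selects are not reported here, in the text or the figures, though they count in the totals. Others, such as near-zero members, were chosen after their values were seen. Alternatives were other thresholds, pseudocounts and filters, scaling to equal library totals and leaving out a library. Python 3.11.15, numpy 2.4.6, pandas 2.3.3 and scipy 1.17.1 were used.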

Additional observations from a re-analysis of the deposited data

How the results depend on the processing

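The number of genes on was 10968 in the main run, and a rise of 1.5 times was not possible among 12861 genes. It was 11507 at a threshold of 5 and 10282 at a threshold of 20. It was 11214 to 11236 when a library was left out, and 10968 with recovered counts scaled to equal totals. Members on over the 37 lists ranged from 436 to 496 around 471. Of 68 lists and families, 4 moved by over 1.5 times at a threshold of 5, 2 at 20, 2 without replicate 12, 1 without replicate 9 and 0 under equal totals; among them, glial markers on were 5 at a threshold of 5 and endothelial markers 1 at a threshold of 20. Lists and families with nearly all members on could not rise by 1.5 times. The share of the 20 most abundant genes was 12.1% to 12.6%. Genes past 2-fold between the libraries depended on the treatment of low values. They were 264 with a pseudocount of 5, 425 with 0.5, 419 under equal totals, 1057 with no filter and 40 at a mean of at least 100, against 406. The median coefficient of variation was 11.2% with no filter, 8.12% at a mean of at least 100 and 9.60% under equal totals, against 9.55%. Depth limits the genes under a normalised count of 10, where the median coefficient of variation was 57.6%. No paired analysis was possible because only the 1 group of CAT libraries was used and no groups were compared.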
